A study of Mus musculus with 4 samples.

Results

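A group of 7 transcription factor genes of the neural crest and its mesenchyme was followed in sorted cardiac neural crest cells (NCCs) with a Cre-driven deletion of integrin-linked kinase (ILK), a scaffold protein of integrin adhesions. They were Sall4, Pax3, Msx2, Prrx1, Dlx1, Tbx3 and Zic1, read by 9 probe sets of 45037 on the array. Signals of 6 of the 7 genes were higher in both NCC-specific ILK knockout (NKO) samples than in both control samples, an order held by 24.2% of all probe sets, and the signal of Zic1 was lower in both, as held by 18.4%. The largest increase was that of Sall4, at 1.47-fold (log2 difference 0.56, standard error 0.06, n = 2 per genotype), and the smallest was that of Dlx1, at 1.17-fold (0.22, standard error 0.06). Zic1 was 1.65-fold lower (log2 difference −0.73, standard error 0.13) and was the only gene of the 7 past 1.5-fold, the cutoff size of the study. On the log2(intensity + 16) scale used here, 0.158% of probe sets passed 1.5-fold in this direction and 0.286% in the other. These shares depend on the added constant, for which the study's methods give no value. With an offset of 1 instead, the counts rose from 71 to 1557 lower and from 129 to 1778 higher probe sets.

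The genes were chosen by their place in a table that the authors deposited, which lists the probe sets that differed between NKO and control arrays in their own test. A gene was taken with every probe set whose entry names that gene alone. All 7 were therefore selected on the same contrast that is described here, so their differences are given as a description, with no p-value and no test. That table names 541 genes alone. Other probe sets of these genes carry no name in the sources used here and were not analysed here.

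NKO embryos carried Wnt1-Cre and 2 floxed Ilk alleles, whereas controls, which the labels call wild type, were given in the study's methods as littermates with Wnt1-Cre and 1 floxed allele. Wnt1-Cre drives recombination in the dorsal neural tube and the neural crest that leaves it. Cells came from outflow tracts (OFTs) at E10.5, were pooled by genotype, and were sorted on the activity of a lacZ reporter of the crest lineage, which both genotypes carried. RNA was taken from several combined sorts, and 2 Affymetrix mouse arrays per genotype were numbered as biological replicates; what separates the replicates is not stated in the sources used here.

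Crest cells arise at the border of the neural plate, where factors such as Pax3, Msx and Zic proteins respond to BMP and Wnt signals. After migration into the pharyngeal arches and the OFT they become mesenchyme, smooth muscle, neurons and glia, and homeobox genes of the Dlx, Msx and Prrx families mark the mesenchymal derivatives. Pax3, Msx2, Prrx1 and Dlx1 encode homeodomain proteins, Tbx3 a T-box protein, and Sall4 and Zic1 zinc finger proteins.

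Ilk itself had intensities of 467.7 and 386.7 in NKO and 809.5 and 800.7 in control samples, a log2 difference of −0.90 (standard error 0.11). The Ilk signal was thus lower by 1.86-fold in NKO samples but was still present in both, and whether this probe set lies in the deleted part is not stated in the sources used here. Intensities are linear values normalized by the authors, and differences were taken on the log2(intensity + 16) scale, which narrows those of dim probe sets. The median intensity of an array was 79.3 and 76.5 in NKO and 77.2 and 75.9 in control samples. On the log2 scale the 2 NKO arrays correlated at r = 0.9948 and the 2 control arrays at 0.9968. Pairs of arrays from different genotypes lay between 0.9948 and 0.9959. The NKO arrays were thus no closer to each other than most pairs of different genotype. Over all 45037 probe sets the median difference was 0.01, 129 (0.286%) were at least 1.5-fold higher in NKO samples and 71 (0.158%) at least 1.5-fold lower. The limma fit called 0 probe sets (0%) after Benjamini-Hochberg adjustment at 0.05, and before adjustment 2331 higher and 1641 lower ones were under 0.05. The methods' t-test likewise called 0 after adjustment, whereas limma with a trend on intensity and robust moderation called 313 higher and 207 lower. With 2 arrays per genotype an exact two-sided permutation test of 1 value cannot give a p below 0.333.

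Sall4 encodes a zinc finger factor known from pluripotent cells and from limb and heart development. Its first probe set, 1424152_at, had intensities of 676.7 and 675.6 in NKO samples and of 468.9 and 440.7 in control samples. The NKO samples differed by less than the controls did, and the lowest NKO value exceeded the highest control value by 206.8 intensity units. The second Sall4 probe set, 1424153_s_at, had 359.8 and 331.7 in NKO samples and 254.8 and 246.2 in control samples, a log2 difference of 0.44 (standard error 0.07). The probe sets of Sall4 thus lay on the same side, and their log2 differences were 0.12 apart. Without the first control sample the first one reached a log2 difference of 0.60, past 1.5-fold, and without the second control sample it was 0.51.

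Pax3, a paired-box factor that mouse crest cells need to septate the OFT, had intensities of 167.9 and 149.9 in NKO samples and of 116.1 and 110.0 in control samples. Its log2 difference was 0.44 (standard error 0.08), or 1.35-fold. The NKO samples were themselves 0.15 apart on the log2 scale, against 0.07 between the controls, and the gap of 0.33 between the genotypes was 2.21 times the larger of these. Without an NKO sample the difference of Pax3 was 0.36 (second NKO sample kept) or 0.51 (first NKO sample kept).

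Msx2, a homeobox gene that responds to BMP signals, had 707.2 and 699.2 in NKO samples and 584.6 and 572.1 in control samples. The log2 difference was 0.28 (standard error 0.06), or 1.21-fold, and the samples of a genotype lay within 0.03 of each other on the log2 scale. Prrx1, a paired-related homeobox gene of limb and craniofacial mesenchyme, had 4717 and 4698 in NKO samples and 4072 and 3910 in control samples, a log2 difference of 0.24 (standard error 0.06) or 1.18-fold. Dlx1, a distal-less homeobox gene of the pharyngeal arches and forebrain, had 708.0 and 730.3 in NKO samples and 627.8 and 602.4 in control samples, a log2 difference of 0.22 (standard error 0.06). For these 3 mesenchymal homeobox genes, both NKO samples stood above both controls, and the gap was between 2.91 (Dlx1) and 8.27 (Msx2) times the larger difference within a genotype.

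Tbx3 encodes a T-box repressor of the developing OFT and conduction system. Probe set 1448029_at had 489.6 and 490.7 in NKO samples and 415.1 and 412.8 in control samples, a log2 difference of 0.24 (standard error 0.06) or 1.18-fold. Probe set 1437479_x_at, of a class that Affymetrix marks as open to cross-hybridization, had 261.3 and 260.1 in NKO samples and 208.6 and 188.4 in control samples, a log2 difference of 0.37 (standard error 0.07). Both probe sets of Tbx3 were higher in NKO samples, by log2 differences that lay 0.13 apart. The control samples differed by 0.14 on the log2 scale in the second probe set and by 0.01 in the first.

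Zic1, a zinc finger gene of the dorsal neural tube and cerebellum that also takes part in crest induction in Xenopus, was the only one of the 7 with a lower signal. It had intensities of 65.0 and 48.6 in NKO samples and of 101.8 and 105.6 in control samples. Both NKO values lay below the median intensity of their arrays (79.3 and 76.5), and both control values lay above theirs (77.2 and 75.9). The NKO samples were 0.33 apart on the log2 scale, against 0.05 between the controls, which was the widest spread within a genotype among the 9 probe sets. Without the offset, mean intensities differed 1.83-fold. Without the second NKO sample the log2 difference of Zic1 was −0.56, short of 1.5-fold, and without the first it was −0.89.

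**Figure D1:**
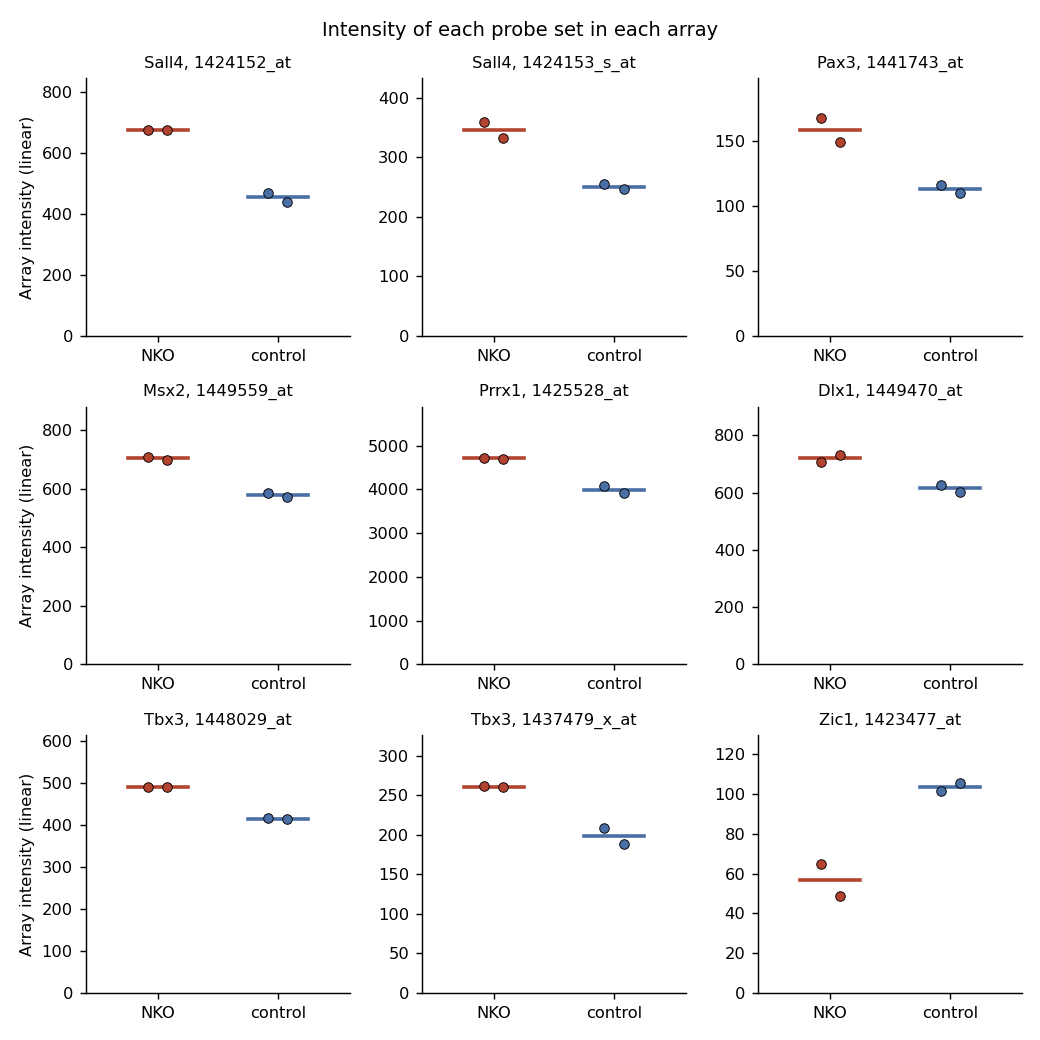
Linear array intensity (vertical axes, starting at 0) of the 9 probe sets in the 2 NKO samples (red, left) and the 2 control samples (blue, right); points are samples and lines are means. Both NKO points lie above both control points in 8 panels and below them in the panel of Zic1, where the NKO samples stood at 65.0 and 48.6.

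In 8 of the 9 probe sets both NKO samples lay above both controls, and in 1 both lay below. The selection on this contrast favors such an order, so nothing is read from these counts or from their shares over the array. In all 9 the gap between the genotypes was wider than either difference within a genotype, from 1.66 times (Zic1) to 30.0 times (Tbx3, 1448029_at). The selection favors such gaps too, and their share over the array was not counted, so nothing is read from this count either. The increases differed in size beside the whole array. An absolute log2 difference larger than that of Dlx1 was found in 13.2% of all probe sets, larger than that of Prrx1 in 11.1%, larger than that of Pax3 in 1.63% and larger than that of Sall4 in 0.540%. For Zic1 the share was 0.149%.

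**Figure D2:**
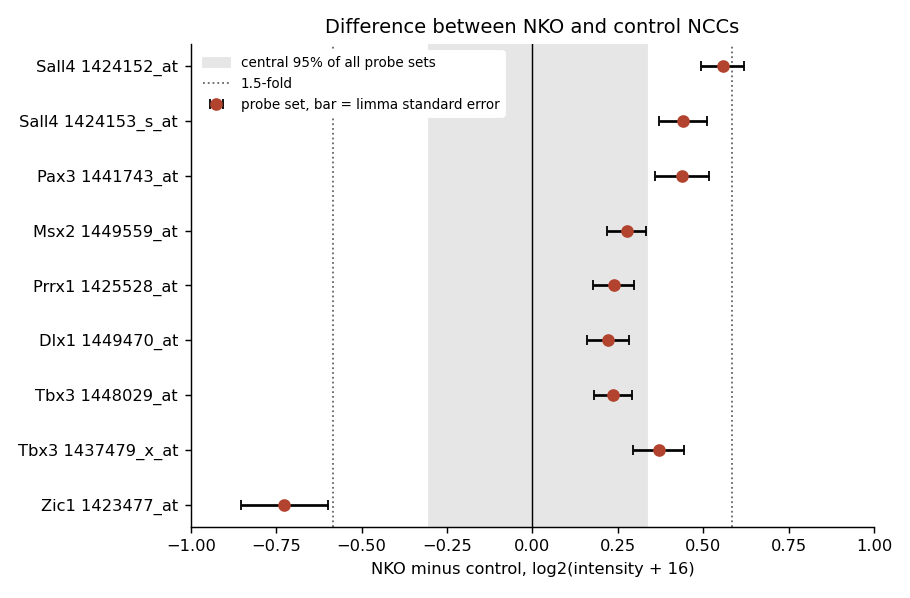
Log2 difference, NKO minus control (horizontal axis, log2(intensity + 16)), of each probe set with its limma standard error; the gray band holds the central 95% of all probe sets, from −0.30 to 0.34, and dotted lines mark 1.5-fold. Sall4, Pax3 and the second Tbx3 probe set lie right of the band, Msx2, Prrx1, Dlx1 and the first Tbx3 probe set lie inside it, and Zic1 at −0.73 lies left of it.

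The edge of the authors' list can be seen beside these genes. Dlx1, the smallest difference of the 9 at 0.22, was also the smallest listed increase among the 1144 probe sets within 10% of its mean intensity, and the largest unlisted increase there was 0.21. Prrx1, with 280 probe sets in such a band of which 4 were listed, was likewise the smallest listed increase at 0.24. The largest unlisted increase there was 0.18. For Zic1 the furthest unlisted decrease in its band was −0.37 against −0.73. None of the 9 probe sets had an unlisted probe set of similar intensity beyond it in the same direction. All 9 were themselves taken from the authors' list, which was made on this contrast. The selection favors such a result, so nothing is read from it about these genes.

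The regions upstream of Msx2 and Zic1 are shown because these genes moved in opposite directions. RefSeq (build GRCm38.p6) gave a promoter window for 4 of the 7 genes, Prrx1, Dlx1, Zic1 and Msx2. The 250 bases before the start used for each window were searched on both strands. For Prrx1 (chr1:163313651-163313900, minus strand) and Dlx1 (chr2:71529195-71529444, plus strand) these bases lie inside the annotated gene. The letters TAATTA are a core bound by many homeodomain proteins. The other motifs searched were the CCAAT box with the letters CCAAT, the GC box written as GGGCGG, the TATA box with the letters TATAAA, and an E-box of Snail and Zeb repressors written as CACCTG. Bases in capitals mark TAATTA and CCAAT. The Msx2 window, on the minus strand at chr13:53472781-53473030, and the Zic1 window, on the minus strand at chr9:91365769-91366018, both end just before the start of the gene:
Msx2: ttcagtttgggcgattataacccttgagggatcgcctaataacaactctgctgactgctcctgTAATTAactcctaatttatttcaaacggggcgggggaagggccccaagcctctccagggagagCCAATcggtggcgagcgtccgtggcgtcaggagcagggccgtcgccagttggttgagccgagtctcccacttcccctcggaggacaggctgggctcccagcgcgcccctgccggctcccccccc
Zic1: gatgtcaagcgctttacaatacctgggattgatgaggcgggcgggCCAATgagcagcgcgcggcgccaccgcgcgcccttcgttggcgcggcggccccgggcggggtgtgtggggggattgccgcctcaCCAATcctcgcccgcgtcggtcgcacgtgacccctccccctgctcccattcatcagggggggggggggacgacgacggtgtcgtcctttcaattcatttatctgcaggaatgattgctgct

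TAATTA was present once upstream of Msx2, beginning 187 bases before the start. It stood once in the Prrx1 window, at 173 bases before the start used there, and was not in the windows of Dlx1 and Zic1. It occurred in 4.84% of all 32851 promoter windows of this length. CCAAT stood once upstream of Msx2 and at 2 places upstream of Zic1, 205 and 121 bases before its start, and occurred in 33.8% of all windows. GGGCGG, found in 32.7% of windows, stood once upstream of Msx2 and at 2 places upstream of Zic1. Neither TATAAA (12.4% of windows) nor CACCTG (17.2%) was in any of the 4 windows. The matches did not overlap each other. A match describes these letters only, and no binding was measured.

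Among all genes named alone in that table, those whose profile over the 4 arrays was closest to each of the 7 genes were found by the root mean square distance of centred log2 values. For Sall4 these were Nrgn, a neuronal calmodulin-binding protein gene, at a distance of 0.018, and Mtrex, an RNA helicase gene of the nuclear exosome, at 0.032. For Pax3 they were the platelet integrin gene Itgb3 and Ctla2b (0.010 and 0.011). For Msx2 they were Erdr1 and the transketolase gene Tkt (0.0078 and 0.0094), for Prrx1 the receptor kinase gene Grk5 and the cullin gene Cul3 (0.0057 and 0.0063), and for Dlx1 the zyxin family gene Lpp and the clathrin adaptor gene Ap2b1 (0.0092 and 0.0095). Tbx3 was closest to the adaptor protein genes Grb2 and Tgfb1i1 (0.0024 and 0.0036). Zic1 was closest to the laminin gene Lamb1, which had 31.6 and 22.4 in NKO samples and 53.5 and 50.5 in control samples, and to the histone variant gene H2az2 (0.048 and 0.053). With 4 arrays such a distance mostly reflects the size of the genotype difference and how far the samples of a genotype lie apart.

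Other factors of the same settings were read from 5 lists with 145 genes, of which 15 were named in the authors' table, 6 with a higher and 9 with a lower signal in NKO samples (median −0.26, against 0.01 over all probe sets and 0.24 over the 541 named genes). All 15 had been selected by the authors on this contrast, as had the 7 genes. Of 24 crest specifiers 2 were named. Zeb2, a repressor gene of migrating crest, had 202.2 and 168.6 in NKO and 163.7 and 131.8 in control samples, a log2 difference of 0.30 (standard error 0.14). Id2, an inhibitor gene that responds to BMP signals, had 288.3 and 259.6 in NKO and 335.0 and 339.5 in control samples, a log2 difference of −0.29 (standard error 0.08). Of 42 factors of pharyngeal arches and mesenchyme 3 were named, all with a lower signal, beside 221 of all 541 named genes. They were Scx of tendon progenitors at −0.57 (standard error 0.07), Meox1 of somites at −0.36 (standard error 0.07) and Tcf21 of epicardial and branchiomeric precursors at −0.26 (standard error 0.06). Prrx1, Dlx1 and Msx2 had a higher signal, but with only 3 of 42 factors named, nothing is read from these opposite sides.

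Of 34 dorsal neural and sensory factors, the setting of Zic1, 5 were named and 4 had a higher signal, beside 59.1% of all 541 named genes. Pou4f1, a gene of sensory neurons, had 82.3 and 79.5 in NKO samples and 33.7 and 34.0 in control samples, a log2 difference of 0.96 (standard error 0.06). Sox4, a gene of immature neurons, was at 0.38 (standard error 0.22) with overlapping genotypes (175.8 and 113.5 in NKO, 114.3 and 96.4 in control samples). Gbx2, a gene of the anterior hindbrain, was on the side of Zic1 at −0.39 (standard error 0.08). Of 25 genes described as downstream of the 7 factors or acting with them, 4 were named. Lin28a, an RNA-binding protein gene that acts with Sall4 in pluripotent cells, had 391.3 and 371.1 in NKO samples and 214.9 and 187.6 in control samples (0.87, standard error 0.09). Myf5 and Myod1, muscle genes that lie downstream of Pax3 in myogenic precursors, were at −0.49 (standard error 0.06) and −0.32 (standard error 0.07), and Nppa, a heart muscle gene that Tbx3 represses, at −0.67 (standard error 0.06).

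Genes of other cell types moved beside these factors. They too were selected by the authors on this contrast, and of all 541 genes named alone 320 (59.1%) were higher in NKO samples. Of 19 neuronal markers 14 were named and all 14 were higher in NKO samples, led by Sncg, Stmn3, Prph and Nefm, with a summed intensity of 4890 and 4616 in NKO and of 2620 and 2604 in control samples. Of 12 platelet markers 9 were named and all 9 were higher, led by Ppbp, Pf4, Plek and Rgs18, with sums of 4050 and 3954 in NKO and of 2310 and 2280 in control samples. Markers of 3 further cell types were higher too. For myeloid cells 4 of 9 were named, with sums of 669.9 and 627.0 in NKO and of 434.8 and 423.9 in control samples. For red blood cells 2 of 10 were named (1502 and 1612 in NKO, 1273 and 1290 in control samples), and for endothelium 2 of 8 (574.0 and 535.7 in NKO, 451.5 and 438.0 in control samples). Lower sums were found for skeletal muscle, with 5 of 11 named (1879 and 1833 in NKO, 2554 and 2579 in control samples), heart muscle, with 6 of 12 (8387 and 8469 in NKO, 10308 and 10226 in control samples), and endoderm and epithelium, with 3 of 9 (148.2 and 125.4 in NKO, 423.2 and 395.8 in control samples). Ttn was counted in both muscle lists, so their sums are not independent. It had 1105 and 1060 in NKO and 1454 and 1450.5 in control samples, the largest part of the skeletal muscle sum. Pou4f1, Myf5, Myod1 and Nppa stand both in these cell type lists and in the factor lists above. None of the named markers had an intensity of 0 in either genotype, but presence was not tested. Alb had 11.7 and 14.9 in NKO and 42.8 and 34.1 in control samples, below the median intensity of each array. The part of these cell types in the differences of the 7 genes was not tested. In such bulk samples, fewer cells of a type and less RNA per cell cannot be told apart. None of the 8 crest identity markers, such as Sox10 and Foxd3, was named, so the labelled cell type was not checked against them here.

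**Figure D3:**
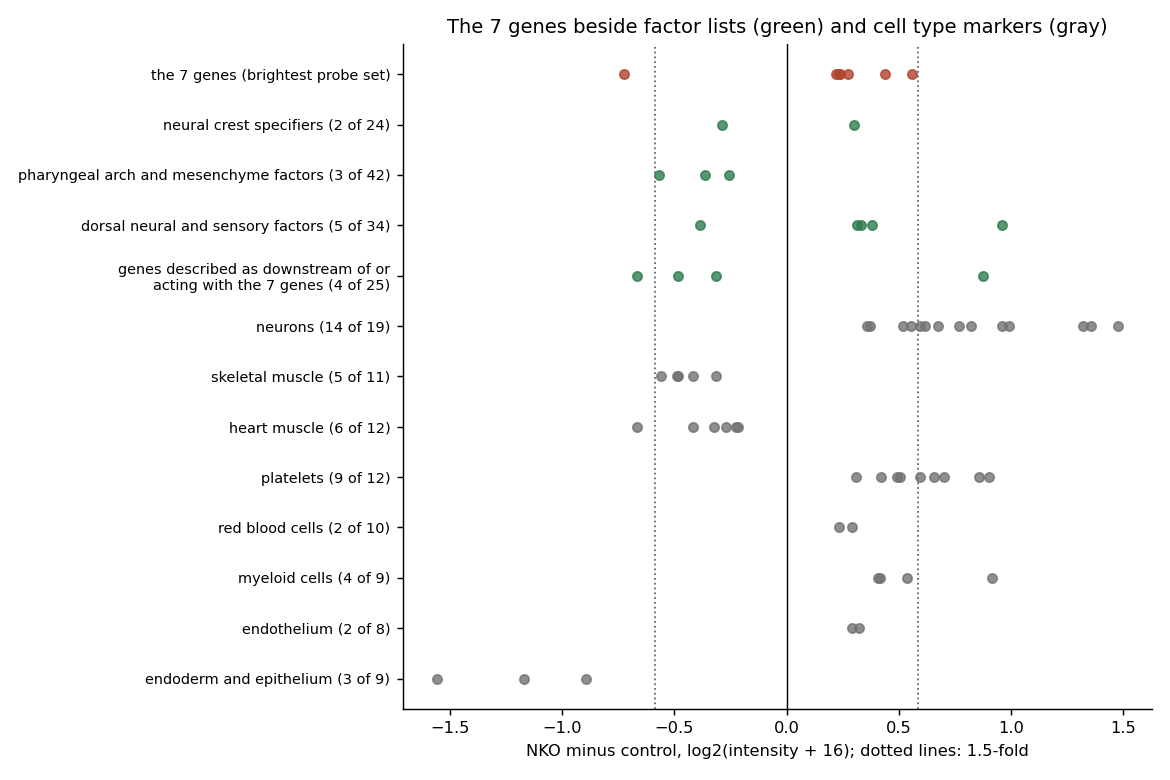
Log2 difference, NKO minus control (horizontal axis, log2(intensity + 16)), of the 7 genes (red) and of the named genes of 4 factor lists (green) and cell type list (gray), 1 point per gene; dotted lines mark 1.5-fold. The 3 arch and mesenchyme factors lie left of 0, all 14 neuronal markers lie right of it, and the 6 higher genes of the 7 lie between 0.22 and 0.56.

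Quantile normalization did not turn the direction of any of the 9 probe sets. Median centring could not turn it, because it moved all differences by the same small amount. It took Dlx1, the smallest, from 0.220 to 0.199. Left-out samples and other offsets could not turn a direction, because the genotypes did not overlap in any of the 9. The lowest and the highest difference over these settings was 0.51 and 0.60 for the first Sall4 probe set, 0.33 and 0.51 for Pax3, 0.25 and 0.29 for Msx2, 0.21 and 0.27 for Prrx1, 0.19 and 0.25 for Dlx1 and 0.21 and 0.24 for the first Tbx3 probe set. Zic1 had the widest range, from −0.89 without the first NKO sample to −0.48 with a larger offset of 64.

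**Figure D4:**
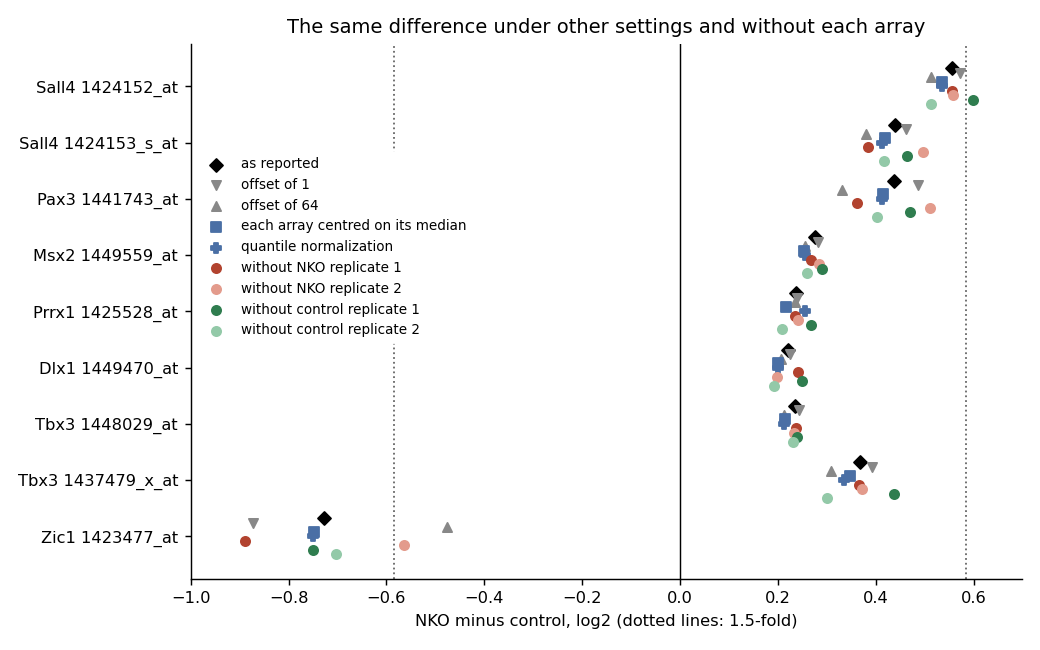
Log2 difference, NKO minus control (horizontal axis), of each probe set as reported (black), with other offsets or scalings (gray and blue) and without each sample in turn (red and green); dotted lines mark 1.5-fold. Values of Zic1 lie on both sides of the lower line, and only the first Sall4 probe set, at 0.60 without the first control sample, crosses the upper one.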

How the data were processed

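RNA of sorted cardiac NCCs was hybridized to 4 Affymetrix mouse arrays, 2 per genotype. Each of the 45101 deposited rows holds an intensity per array that the authors had normalized. The algorithm, and the version of the Affymetrix Expression Console named in their processing notes, are not stated in the labels, files or methods. They are linear: the mean of the control columns equalled the control intensity in the authors' deposited comparison table within 0.0447%. That table, made by the authors with VAMPIRE at a Bonferroni threshold of 0.05, lists 766 probe sets, of which 603 carry 1 gene name, 48 several and 115 none. Only its names and control means were used, not its fold changes and p-values. All 7 gene names matched RefSeq, while 15 other names did not and were kept as in the file.

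After removal of 64 array control rows, 16 was added before log2, and genotypes were compared over 45037 probe sets with limma 3.58.1 (lmFit, eBayes, R 4.3.3). The fit was also run on simulated data. In that simulation all probe sets had the same spread, and its calls are not reported here. Standard errors are limma's moderated ones. Summaries used Python 3.11.15 (pandas 2.3.3, numpy 2.4.6), and plots used matplotlib 3.10.9. The number of arrays limits the precision.

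The 7 genes and the lists were chosen with earlier results of these data known. Named were the 7 genes with all their probe sets, Ilk, up to 4 genes of the largest absolute difference per list (a gene's brightest probe set), and the 2 nearest profiles of each gene. The results of some genes that fall under this rule are not reported here. Neither list counts nor profiles were tested. Alternatives were offsets of 1 and 64, median centring, quantile normalization, a filter on dim probe sets, limma with a trend on intensity and robust moderation, the mean over a gene's probe sets, the methods' t-test, a replicate block and leaving out each array.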

Additional observations from a re-analysis of the deposited data

How the results depend on the processing

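Of 72 values of the 9 probe sets under other settings, 0 changed direction and 10 moved by more than the spread between replicates. With other offsets or left-out samples the direction could not change, because the genotypes did not overlap in any of the 9. Median centring could not change it either, because it moved all differences by the same small amount. Under each of the other settings 6 higher and 1 lower gene were counted. Without single replicates, 0 to 1 of the 7 genes were at least 1.5-fold higher (Sall4, without the first control sample) and 0 to 1 at least 1.5-fold lower, the 0 without the second NKO sample. With an offset of 64, 0 genes were 1.5-fold lower. On the whole array the counts past 1.5-fold, 129 higher and 71 lower, became 1778 and 1557 with an offset of 1, 23 and 13 with an offset of 64, and 38 and 13 among probe sets brighter than the median, and without single replicates they ranged from 226 to 387 and from 145 to 259. Adjusted limma calls numbered 0 in either direction, also without single replicates (0 to 0), where the lone sample is assumed to vary like the other genotype. They were 43 higher and 17 lower with an offset of 64, 36 and 16 among the brighter probe sets, and 313 and 207 with a trend on intensity and robust moderation. The cause was not tested. A replicate block gave 0 and 0 calls. Same-numbered arrays shared no deviation over the whole array (r = −0.03 between their deviations, across 45037 probe sets, which are not independent). This value cannot show whether same-numbered samples were collected or handled together. The methods' t-test passed 2258 higher and 1715 lower probe sets at their threshold and 0 after Benjamini-Hochberg adjustment.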
